A study of Arabidopsis with 4 samples.

Results

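The SPL genes (SQUAMOSA PROMOTER BINDING PROTEIN-LIKE) of the vegetative phase change were described in seedlings of jmj28-2 (n = 2 libraries) and of the wild type Col-0 (n = 2 libraries). The 10 genes were chosen by identifier, with earlier results of these data known. They were SPL2 (AT5G43270), SPL3 (AT2G33810), SPL4 (AT1G53160), SPL5 (AT3G15270), SPL6 (AT1G69170), SPL9 (AT2G42200), SPL10 (AT1G27370), SPL11 (AT1G27360), SPL13A (AT5G50570) and SPL15 (AT3G57920), out of 32833 genes in the deposited table. jmj28-2 is a mutant of JMJ28 in the Col-0 background, and JMJ28 belongs to the KDM3 class of JmjC histone demethylases. Whole seedlings of both genotypes were taken at 12 days, after growth at 23 °C in 16 h of light and 8 h of dark on 1% sucrose medium. The jmj28-2 seedlings represent 1 mutant allele, whose position in the gene the labels leave unstated. Since no label ties the libraries to separate cultures, the p-values measure only how far these libraries spread, and that spread may be technical.

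SPL proteins are plant transcription factors with a shared SBP DNA-binding domain that recognizes a GTAC core. In young seedlings the microRNA miR156, and its relative miR157, cleave SPL transcripts and block their translation. As the shoot ages miR156 declines, SPL activity rises, and leaves change from a juvenile to an adult form before the shoot becomes able to flower. Work in Arabidopsis has assigned the leaf changes mainly to SPL9, SPL13, SPL15, SPL2, SPL10 and SPL11, and the promotion of floral meristem identity to SPL3, SPL4 and SPL5. A transcript level does not record translation, so control by miR156 that leaves the transcript whole is not seen in these data.

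JMJ28 itself had 5.45 and 5.72 TPM (a transcript level scaled for gene length and to a fixed total per library) in jmj28-2, against 7.63 and 7.70 TPM in Col-0. Both mutant libraries lay below both wild-type libraries, and the change missed the threshold (log2 change -0.40, limma adjusted p = 0.235). All 4 libraries had between 19606 and 19751 genes at 1 TPM or more, and their sequencing depth is unknown. Over genes, whose values are not independent of each other, the Pearson correlation of log2(TPM + 1) was 0.977 between the jmj28-2 libraries, 0.980 between the Col-0 libraries and 0.973 to 0.976 between genotypes.

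All 10 SPL genes were detected in all 4 libraries, and none passed the test between jmj28-2 and Col-0. Of the 10, 9 reached the mean of 1 TPM needed for the limma test, and SPL5 did not. A total of 0 rose and 0 fell at an adjusted p under 0.05, where 0.0405% of the 19764 genes tested rose and 0.0354% fell. Means lay below the wild type for 7 of the 9 and above it for 2, with a median log2 change of -0.12, against 0.028 over all genes tested, of which 42.7% had a lower mean. SPL6, SPL9 and SPL10 had both jmj28-2 libraries below both Col-0 libraries, or 3 of 9, a pattern that 17.6% of all genes tested showed. The opposite pattern occurred in 0 of the 9 and in 29% of all genes tested. At an unadjusted p under 0.05, limma found 2 members, SPL9 and SPL10, both lower, where 4.36% of all genes were lower and 9.5% higher at that level.

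The order of transcript levels was nearly the same in every library. SPL2 ranked highest in all 4 libraries, followed by SPL10 and SPL9, while SPL3, SPL15 and SPL5 were the lowest in that order in all 4. SPL11, SPL13A, SPL6 and SPL4 lay between and exchanged places. Over the 4 libraries, the range of SPL2 did not overlap that of SPL10, nor that of SPL4 the range of SPL3, nor that of SPL15 the range of SPL5. The other neighbours overlapped over the 4 libraries. Within each genotype, however, SPL10 lay above SPL9 and SPL9 above SPL11 in both jmj28-2 and Col-0, without overlap. SPL13A lay above SPL6 in jmj28-2 and below it in Col-0. SPL11 and SPL13A overlapped in jmj28-2 and not in Col-0, as did SPL6 and SPL4. SPL3 and SPL15 overlapped in both genotypes, although SPL3 lay above SPL15 within each library.

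**Figure D1:**
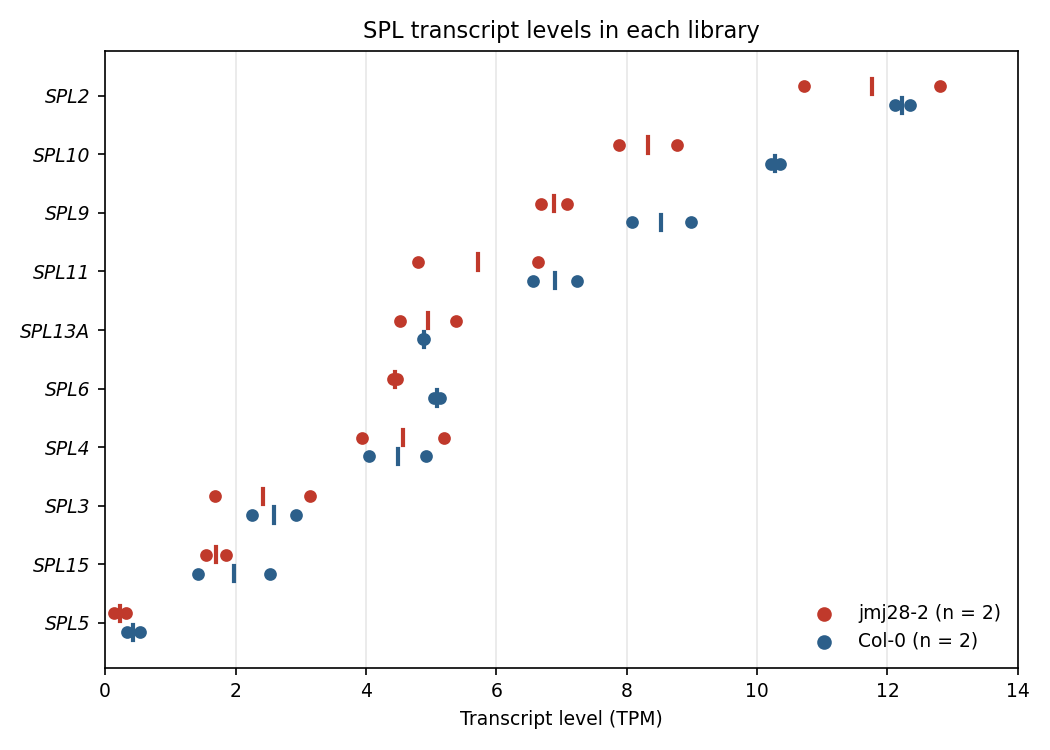
Transcript levels (TPM) of the 10 SPL genes, with 1 point per library, jmj28-2 in red above Col-0 in blue, and a short vertical line at each mean of 2 libraries. SPL6, SPL9, SPL10 and SPL5 show no overlap between the genotypes, and the other genes overlap.

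SPL9 and SPL15 form a pair of closely related factors that pace leaf initiation and promote the adult leaf form. SPL9 had 7.09 and 6.68 TPM in jmj28-2, against 8.08 and 8.98 TPM in Col-0. Both mutant libraries lay below both wild-type libraries. The means were 6.89 ± 0.290 and 8.53 ± 0.636 TPM (SD, n = 2 each), a ratio of 0.807, and the difference did not pass (log2 change -0.27, SE 0.101, limma adjusted p = 0.341). SPL15, which also acts with the MADS-box factor SOC1 at the shoot meristem, had 1.85 and 1.54 TPM in jmj28-2, against 1.42 and 2.53 TPM in Col-0. The mutant values lay within the wild-type pair, and the 95% interval of the log2 change ran from -0.73 to 0.49 (limma adjusted p = 0.862). That interval leaves room for a sizeable change of SPL15 in either direction.

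SPL2, SPL10 and SPL11 are a second clade, with roles in leaf shape and in later organs, and took the largest part of the summed SPL signal. Together they gave 27.3 and 24.3 TPM in jmj28-2, against 29.3 and 29.6 TPM in Col-0, which was 51.1% and 50.0% of the 10-gene sum in jmj28-2, and 52.7% and 49.9% in Col-0. SPL10 had 7.89 and 8.77 TPM in jmj28-2, against 10.35 and 10.21 TPM in Col-0. Both mutant libraries lay below both wild-type libraries, with means of 8.33 ± 0.622 and 10.28 ± 0.0990 TPM and a ratio of 0.810. This was the smallest p among the SPL members, and it did not pass (log2 change -0.28, SE 0.0935, limma adjusted p = 0.311). SPL11 lies next to SPL10 in RefSeq order, with 0 annotated genes between them. It had 6.64 and 4.80 TPM in jmj28-2, against 6.57 and 7.24 TPM in Col-0. Only jmj28-2 replicate 2 lay below the wild-type pair, so the neighbouring genes had different patterns across the libraries (SPL11 log2 change -0.25, limma adjusted p = 0.551). SPL2, the most abundant member, had 12.81 and 10.72 TPM in jmj28-2, against 12.34 and 12.11 TPM in Col-0. The mutant libraries lay on either side of the wild-type pair (95% interval of the log2 change -0.33 to 0.21, limma adjusted p = 0.855).

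SPL13 is encoded by near-identical copies, and reads that fit both are divided between them by estimation. The table gives the same gene name and protein description for AT5G50570 (SPL13A, the member) and AT5G50670 (SPL13B in RefSeq), which lie on chromosome 5 with 11 annotated genes between them. SPL13A had 5.39 and 4.52 TPM in jmj28-2, against 4.88 and 4.89 TPM in Col-0, a mutant pair that enclosed the wild type (limma adjusted p = 0.974). SPL13B had 6.17 and 7.99 TPM in jmj28-2, against 4.92 and 5.44 TPM in Col-0. Both mutant libraries lay above both wild-type libraries for SPL13B, and the difference did not pass (log2 change 0.38, 95% interval 0.0081 to 0.75, limma adjusted p = 0.352). Without jmj28-2 replicate 2 the log2 change of SPL13B was 0.22, with an interval from -0.17 to 0.60.

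The sum of both copies does not depend on how shared reads were divided between them. It was 11.56 and 12.51 TPM in jmj28-2, against 9.80 and 10.33 TPM in Col-0, with means of 12.0 ± 0.672 and 10.1 ± 0.375 TPM (SD, n = 2 each). Both mutant sums lay above both wild-type sums, opposite to SPL9 and SPL10. Fitted as 1 gene, a step chosen after seeing the data, the sum did not pass (log2 change 0.24, 95% interval 0.013 to 0.46, limma adjusted p = 0.341). SPL13B made up 53.4% and 63.9% of the sum in jmj28-2, against 50.2% and 52.7% in Col-0. The lowest SPL13A value of the 4 libraries was that of jmj28-2 replicate 2, and a low SPL13A value by itself raises the share of SPL13B. The split between the copies is an estimate and uncertain, and how shared reads were divided was not tested.

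**Figure D2:**
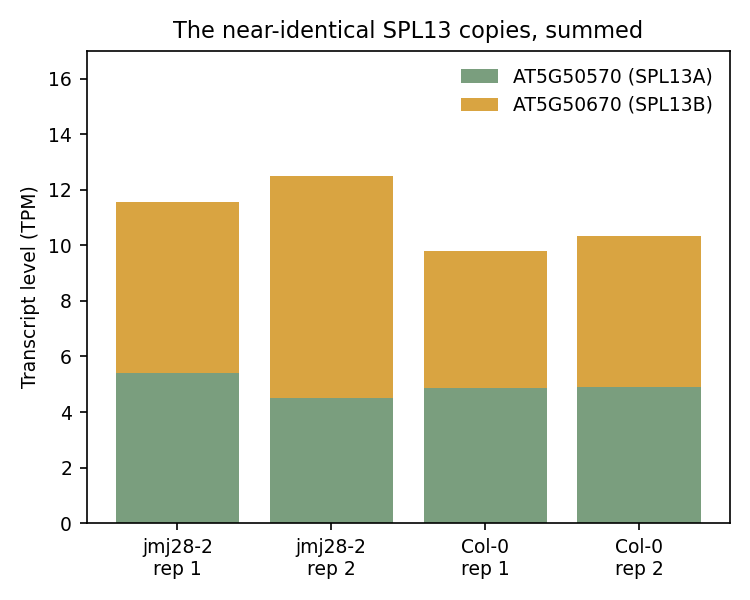
Summed transcript level (TPM) of the near-identical SPL13 copies, stacked, in each jmj28-2 and Col-0 library. The sums are 11.56 and 12.51 TPM in jmj28-2, above 9.80 and 10.33 TPM in Col-0. Most of the difference lies in the AT5G50670 part as estimated, and the split between the copies is uncertain.

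SPL3, SPL4 and SPL5 encode short proteins that are little more than the SBP domain, and they act on floral meristem identity genes such as LFY, FUL and AP1. SPL3 had 3.14 and 1.69 TPM in jmj28-2, against 2.25 and 2.93 TPM in Col-0. The mutant libraries lay on either side of the wild-type pair and differed more from each other than the genotypes did (means 2.42 ± 1.03 and 2.59 ± 0.481 TPM, limma adjusted p = 0.896). SPL4 had 3.94 and 5.20 TPM in jmj28-2, against 4.05 and 4.92 TPM in Col-0, and again the mutant pair enclosed the wild type (limma adjusted p = 0.974). SPL5, at 0.32 and 0.14 TPM in jmj28-2, against 0.53 and 0.33 TPM in Col-0, was the lowest member throughout. Its highest mutant value and its lowest wild-type value differ by 0.01 TPM, the last decimal of the table, and SPL5 did not pass when fitted without the filter (limma adjusted p = 0.601). The 3 genes together gave 7.40 and 7.03 TPM in jmj28-2, against 6.83 and 8.18 TPM in Col-0, so the sum of this clade overlapped between genotypes.

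SPL6 carries a miR156 site like the others but has been given little role in the phase change of leaves. It had 4.42 and 4.48 TPM in jmj28-2, against 5.05 and 5.14 TPM in Col-0. The libraries of a genotype lay close together, and both mutant libraries lay below both wild-type libraries, with a ratio of 0.873. The limma test borrows its spread from all genes, and SPL6 did not pass (log2 change -0.16, 95% interval -0.44 to 0.11, limma adjusted p = 0.560).

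**Figure D3:**
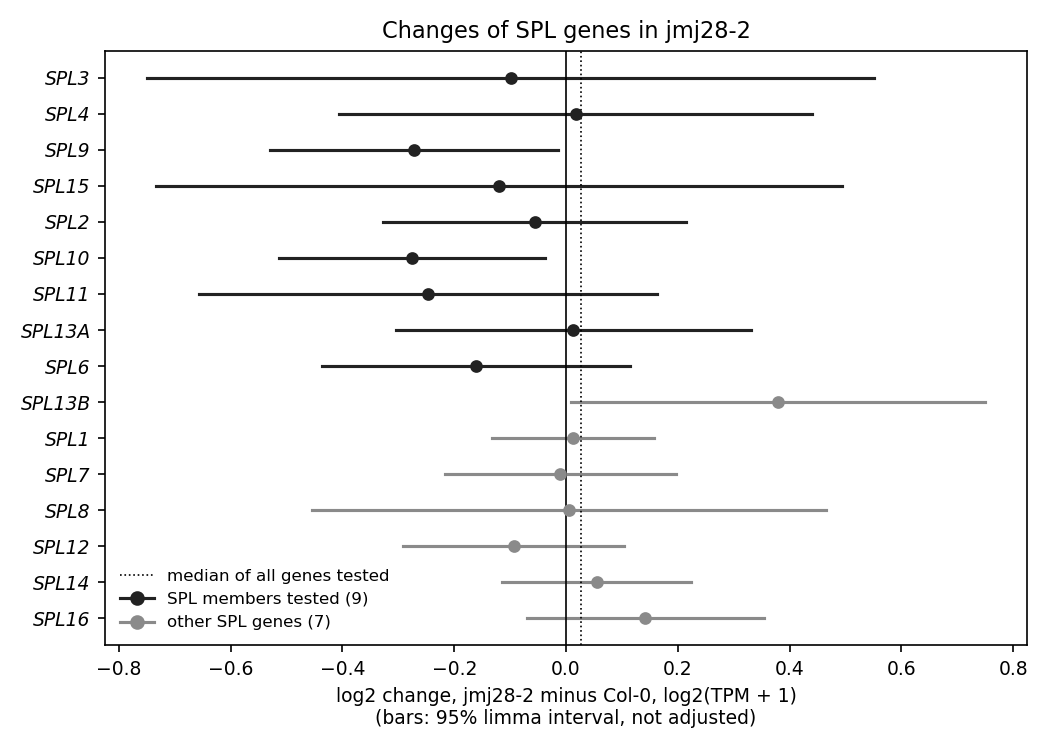
Log2 change (jmj28-2 minus Col-0, on log2(TPM + 1)) of the 9 SPL members tested, in black, and of the 7 other SPL genes, in grey, with 95% limma intervals that are not adjusted for multiple tests. The intervals of SPL9 and SPL10 lie below 0 and that of SPL13B lies above 0, and no gene passed after adjustment.

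The sum of all 10 members was 53.5 and 48.5 TPM in jmj28-2, against 55.5 and 59.3 TPM in Col-0, a ratio of means of 0.889. Sums from both mutant libraries were below those of both wild-type libraries, and SPL2 and SPL10 weigh most in them. The means differed most for SPL10 (-1.95 TPM) and SPL9 (-1.64 TPM), and by -0.46 TPM for SPL2. The sum holds SPL13A but not its copy SPL13B, which was higher in jmj28-2. When libraries were left out in turn, SPL9, SPL10, SPL11 and SPL6 kept a negative log2 change in every case, from -0.34 to -0.20 for SPL9 and from -0.34 to -0.21 for SPL10. SPL11 ran from -0.45 to -0.048, where the value nearest 0 was obtained without jmj28-2 replicate 2. The signs of SPL2, SPL3, SPL4, SPL13A and SPL15 depended on which library was left out, and those of SPL4 and SPL13A also turned under both rescalings.

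**Figure D4:**
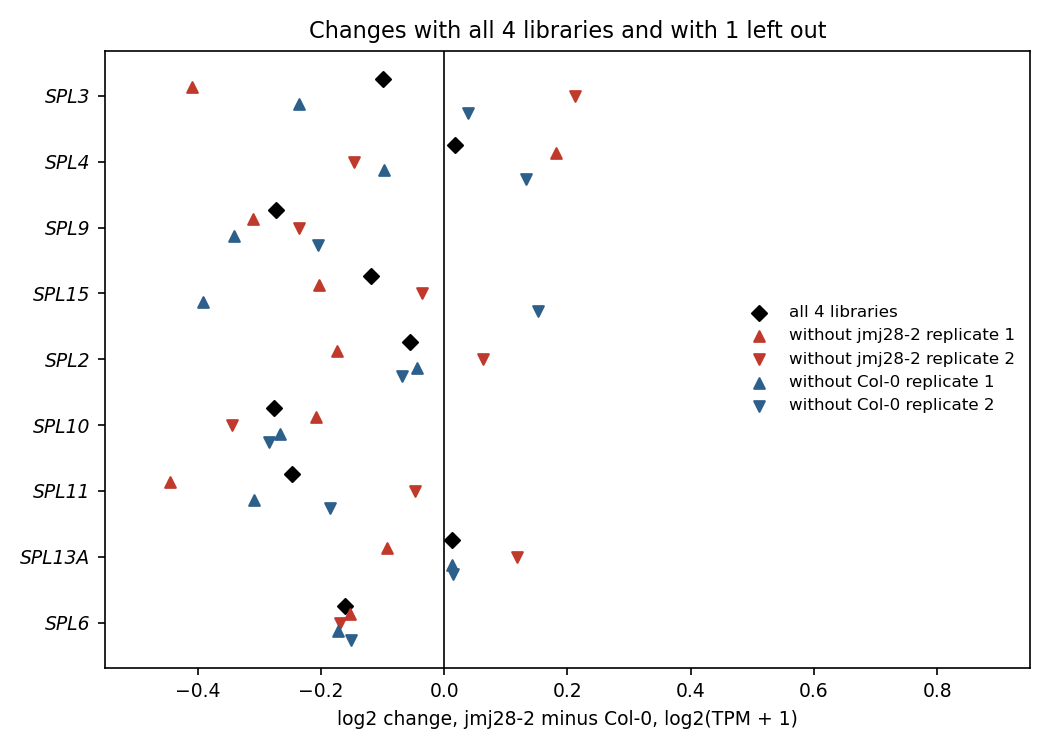
Log2 change (jmj28-2 minus Col-0) of the 9 SPL members tested with all 4 libraries (black diamonds) and with 1 jmj28-2 library (red) or 1 Col-0 library (blue) left out. SPL6, SPL9, SPL10 and SPL11 stay below 0 in all settings shown, while SPL2, SPL3, SPL4, SPL13A and SPL15 lie on both sides.

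Among the 6 SPL genes that miR156 does not target, log2 changes ran from -0.094 for SPL12 to 0.14 for SPL16. SPL1, the most abundant SPL gene, had 45.75 and 45.97 TPM in jmj28-2, against 45.38 and 45.51 TPM in Col-0 (limma adjusted p = 0.940; its log2 change of 0.013 turned negative under both rescalings). SPL12 had 27.44 and 28.05 TPM in jmj28-2, against 28.15 and 31.28 TPM in Col-0, and SPL14, a large SPL protein of the same kind, had 30.56 and 29.61 TPM, against 28.22 and 29.65 TPM. SPL7, the regulator of copper deficiency responses, had 17.48 and 15.89 TPM in jmj28-2, against 16.58 and 17.01 TPM in Col-0. SPL16 had 9.72 and 9.73 TPM in jmj28-2, against 8.73 and 8.71 TPM in Col-0, without overlap. SPL8, which acts in anther development, had 1.45 and 1.69 TPM, against 1.64 and 1.48 TPM. With SPL13B these make 7 genes, of which 0 passed in either direction with limma (1 higher, SPL13B, at an unadjusted p under 0.05), with a median log2 change of 0.013. Without overlap, 3 of the 7 were higher (SPL1, SPL16 and SPL13B) and 1 lower (SPL12), where 29% and 17.6% of all genes tested were. At an unadjusted limma p under 0.05, 9.5% of all genes tested were higher.

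The microRNA genes upstream of the SPL transcripts gave little signal. Of the 12 MIR156 and MIR157 genes, 10 were listed at 0 in all 4 libraries, where an exact 0 can be a failed estimate of a short transcript. MIR156C had 3.71 and 2.17 TPM in jmj28-2, against 2.25 and 2.30 TPM in Col-0, so its mutant libraries lay on either side of the wild type (limma adjusted p = 0.680). MIR157C had 5.94 and 4.68 TPM in jmj28-2, against 8.29 and 5.17 TPM in Col-0, and overlapped (limma adjusted p = 0.640). These values come from primary transcripts and do not measure mature miR156. The 11 genes of microRNA processing and action had 8 higher and 3 lower means, and 0 passed in either direction with limma (0 at an unadjusted p under 0.05, median log2 change 0.051). HST, an exportin-like protein needed for normal microRNA levels, had 9.12 and 8.24 TPM in jmj28-2, against 7.40 and 7.40 TPM in Col-0, without overlap, and missed the threshold (limma adjusted p = 0.429). DCL1, which cuts microRNA precursors, had 10.93 and 10.38 TPM, against 11.32 and 11.36 TPM.

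Regulators of the MIR156 genes were tested in 13 of 15 cases, with 9 higher and 4 lower means, and 0 passed with limma (0 at an unadjusted p under 0.05, median log2 change 0.045). BMI1A, a Polycomb ring-finger protein of a kind that silences MIR156 genes with age, had 6.38 and 6.45 TPM in jmj28-2, against 5.73 and 4.80 TPM in Col-0. AGL18, a MADS-box factor that promotes MIR156 expression, had 8.19 and 7.95 TPM in jmj28-2, against 6.84 and 7.10 TPM in Col-0. MYB33, another activator of MIR156 genes, had 7.68 and 7.51 TPM in jmj28-2, against 6.70 and 6.49 TPM in Col-0. None of these, named for the smallest p in the list, passed (limma adjusted p of 0.436 or more). Both jmj28-2 libraries lay above both Col-0 libraries for 5 of the 13 tested and below them for 2, where 29% and 17.6% of all genes did so. The 5 DELLA genes, whose proteins bind SPL9 and restrain it until gibberellin removes them, overlapped between genotypes in all 5 cases (limma adjusted p of 0.861 or more).

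Downstream, SPL9 activates miR172, which in turn limits AP2-like repressors of flowering. All 5 MIR172 genes were listed at 0 in all 4 libraries. The 6 AP2-like genes were tested, 2 with higher and 4 with lower means, and 0 passed with limma (1 lower, TOE3, at an unadjusted p under 0.05). TOE3 had 3.73 and 6.23 TPM in jmj28-2, against 7.74 and 7.67 TPM in Col-0, without overlap (log2 change -0.57, limma adjusted p = 0.341). Its log2 change was -0.27 without jmj28-2 replicate 1 and -0.88 without jmj28-2 replicate 2. TOE1 had 69.25 and 66.59 TPM in jmj28-2, against 75.01 and 71.25 TPM in Col-0, also without overlap. SNZ had 16.39 and 15.67 TPM in jmj28-2, against 18.87 and 16.46 TPM in Col-0. Without overlap, 3 of the 6 were lower (TOE3, TOE1 and SNZ) and 0 higher, where 17.6% and 29% of all genes tested were. At an unadjusted limma p under 0.05, 4.36% of all genes tested were lower. AP2, the founding member, had 22.41 and 19.81 TPM in jmj28-2, against 20.65 and 20.06 TPM in Col-0.

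Of the 9 flowering genes downstream of or beside SPL factors, 5 were tested and 0 passed in either direction with limma (1 higher, FLC, and 1 lower, SOC1, at an unadjusted p under 0.05). Over all genes tested, 9.5% were higher and 4.36% lower at that level. FLC, the MADS-box repressor that binds the SPL15 gene, had 8.97 and 9.12 TPM in jmj28-2, against 2.68 and 3.07 TPM in Col-0 (log2 change 1.38, limma adjusted p = 0.0650). It passed with robust fitting (limma adjusted p = 0.0234, range over its alternatives 0.0234 to 0.268). SOC1, which SPL9 activates, had 22.29 and 18.69 TPM in jmj28-2, against 30.16 and 34.10 TPM in Col-0 (log2 change -0.63, limma adjusted p = 0.195). FUL, another MADS-box target of SPL factors, had 0.50 and 0.51 TPM in jmj28-2, against 1.01 and 0.82 TPM in Col-0. FUL was under the mean of 1 TPM, and fitted with all genes above 0 it missed the threshold (limma adjusted p = 0.372). AGL24 had 4.96 and 5.15 TPM in jmj28-2, against 4.08 and 4.22 TPM in Col-0. LFY was at 0.17 and 0.21 TPM in jmj28-2, against 0.29 and 0.11 TPM in Col-0, and AP1 was listed at 0 throughout.

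SPL9 is also known to limit trichomes on the inflorescence stem and to lower anthocyanin. In the list of trichome and anthocyanin genes 12 of 12 genes were tested, 6 with higher and 6 with lower means, and 0 passed with limma (2 lower, PAP1 and TCL2, at an unadjusted p under 0.05). TCL1, a single-repeat MYB inhibitor of trichomes that SPL9 activates, had 0.76 and 1.27 TPM in jmj28-2, against 1.61 and 2.62 TPM in Col-0, without overlap (log2 change -0.62, limma adjusted p = 0.379). Its neighbour in function TCL2 had 13.51 and 15.85 TPM in jmj28-2, against 17.15 and 20.10 TPM in Col-0. TRY, the other trichome inhibitor that SPL9 activates, had 2.63 and 3.10 TPM in jmj28-2, against 2.54 and 2.72 TPM in Col-0, and overlapped. PAP1, a MYB activator of anthocyanin synthesis, had 2.53 and 2.34 TPM in jmj28-2, against 4.54 and 3.82 TPM in Col-0 (log2 change -0.59, limma adjusted p = 0.235). DFR, an anthocyanin enzyme gene that SPL9 restrains, had 13.48 and 19.74 TPM in jmj28-2, against 13.31 and 15.27 TPM in Col-0, so PAP1 and DFR did not share a pattern. TT7 of the same list had 7.84 and 8.32 TPM in jmj28-2, against 6.59 and 7.23 TPM in Col-0. TT8 had 1.52 and 1.46 TPM, against 0.68 and 1.26 TPM. Without overlap, 2 of the 12 genes were higher (TT7 and TT8) and 5 lower, where 29% and 17.6% of all genes tested were. At an unadjusted limma p under 0.05, 4.36% of all genes tested were lower.

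**Figure D5:**
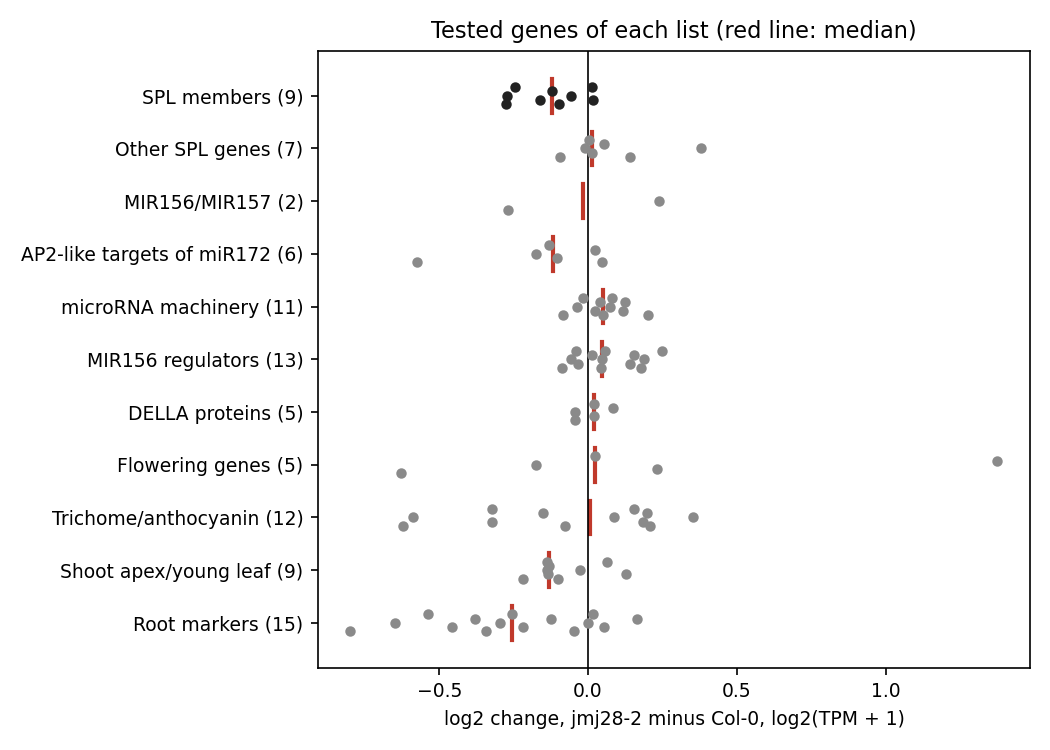
Log2 change (jmj28-2 minus Col-0) of each tested gene in the SPL group and in the lists around it, with the number tested in brackets and the median as a red line. The SPL members have a median of -0.12, beside -0.12 for the AP2-like genes and -0.13 for shoot apex and young leaf markers. Root markers have the lowest median, -0.26. The medians of the other lists run from -0.016 (MIR156 and MIR157) to 0.051 (microRNA machinery). The far right point is FLC.

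Markers of the shoot apex and young leaves, where SPL genes act, had mostly but not all lower means in jmj28-2. In whole seedlings, fewer cells of a type and less RNA per cell cannot be told apart. Of 15 shoot apex and young leaf markers, 9 were tested, with 7 lower and 2 higher means, a median log2 change of -0.13 and 0 that passed with limma (1 lower, AS1, at an unadjusted p under 0.05). The summed level of all 15 was 163.7 and 173.5 TPM in jmj28-2, against 180.3 and 184.1 TPM in Col-0, so the groups did not overlap. Without overlap, 4 of the 9 tested were lower and 0 higher, where 17.6% and 29% of all genes tested were. Of all genes tested, 42.7% had a lower mean and 4.36% were lower at an unadjusted limma p under 0.05. AS1, a leaf identity factor, had 26.42 and 29.15 TPM in jmj28-2, against 31.78 and 33.14 TPM in Col-0 (limma adjusted p = 0.325). FIL, a YABBY factor of young leaves, had 44.48 and 42.33 TPM, against 47.96 and 47.65 TPM. STM, a meristem homeobox gene, had 2.16 and 2.81 TPM in jmj28-2, against 2.69 and 1.98 TPM in Col-0, and CYCB1;1, a mitotic cyclin, had 8.62 and 9.16 TPM, against 8.65 and 7.49 TPM, both with higher means. KNAT2, a homeobox gene of the meristem under the mean of 1 TPM, had 1.14 and 1.13 TPM in jmj28-2, against 0.47 and 0.67 TPM in Col-0. Both its mutant libraries lay above both wild-type libraries, and without the filter it missed the threshold (log2 change 0.45, limma adjusted p = 0.319). The stem cell marker CLV3 was listed at 0 throughout and WUS in 3 of the 4 libraries. The part of these markers in the SPL values was not tested.

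As a list, root markers were lowest in jmj28-2 replicate 2. The median of the 15 tested root markers, relative to the Col-0 mean on the log2 scale, was 0.057 and -0.61 in jmj28-2, against -0.0048 and 0.0048 in Col-0. In the same libraries the median of the 9 SPL members was -0.048 and -0.20 in jmj28-2, against -0.061 and 0.061 in Col-0. Summed root markers gave 2305 and 1837 TPM in jmj28-2, against 2193 and 2138 TPM in Col-0, none was at 0, and 0 of 15 passed with limma (2 lower, FIT and MRN1, at an unadjusted p under 0.05). For 4 of the 15, FIT, MRN1, CASP2 and CASP5, both mutant libraries were below both wild-type libraries, and the other 11 overlapped. Over all genes tested, 17.6% lay lower without overlap, and 4.36% were lower at an unadjusted limma p under 0.05. SPL2, SPL3, SPL5, SPL9, SPL11, SPL13A and SPL15 had lower values in jmj28-2 replicate 2 than in replicate 1, and SPL4, SPL6 and SPL10 higher ones. The part of this library difference in the SPL values was not tested. Without that library the log2 changes of SPL9 and SPL10 were -0.23 and -0.34. Those of SPL6, SPL4, SPL11 and SPL15 were -0.17, -0.15, -0.048 and -0.036. SPL2, SPL13A and SPL3 then had positive log2 changes of 0.063, 0.12 and 0.21.

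Genes with profiles near those of SPL9 and SPL3 were sought among the 19764 genes tested. By the root mean square difference over the 4 libraries of log2(TPM + 1) minus the Col-0 mean, the genes most like SPL9 were ARPC4 (0.0071), NIP6-1 (0.0080) and ALMT4 (0.012), and 1176 genes lay within 0.1 of it. For SPL3 they were MYB52 (0.021), ATG8H (0.023) and ATS3 (0.024), and 153 genes lay within 0.1. With 4 libraries, such likeness is a description of these samples.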

How the data were processed

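RNA sequencing of 4 libraries was analysed from 1 table that the authors deposited. It is labelled FPKM, but its columns sum to 998943 to 999014, so the deposited values were read as TPM, for which the planned test is the same. TopHat, RSEM and edgeR with build TAIR10 are named, without versions, per the submitters' processing notes; for filters, annotation version and strand use, nothing is stated. Columns were matched to libraries by name, with 0 left unmatched. TPM keep no depth, so no counting interval is given, and they share a fixed total.

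The 19764 genes that averaged 1 TPM or more were fitted as log2(TPM + 1) in limma 3.58.1 under R 4.3.3. The model held genotype alone, with an intensity trend (2 residual and 3.18 prior degrees of freedom). The pseudocount understates changes of low genes. Tests were two-sided, adjusted by Benjamini-Hochberg over all genes tested, and called below an adjusted p of 0.05. The smallest permutation p for 2 against 2 libraries is 0.333. The procedure was tested on simulated data. The members and lists were chosen with earlier results of these data known. Named genes were the members, JMJ28, the other SPL genes, the MIR genes above 0, SOC1, FLC, FUL, up to 4 genes per list with the smallest p, and the 3 genes most like SPL3 and SPL9. AP2, TRY, DFR, TT8, LFY, AP1, CLV3, WUS, STM, CYCB1;1 and KNAT2 were named after their values were seen. RefSeq (TAIR10.1) matched all 123 list genes and served for names and gene order only. Figures were drawn with matplotlib 3.10.9.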

Additional observations from a re-analysis of the deposited data

How the results depend on the processing

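With each of 13 other settings, 0 SPL members were called higher and 0 lower. Of the genes in the other lists, 0 were called as reported, and robust fitting called 1 higher (FLC) and 0 lower. Over all genes, 8 were called higher and 7 lower. Robust fitting gave 29 and 14, a pseudocount of 0.01 gave 5 and 3, no filter gave 4 and 5, no trend gave 3 and 8, median rescaling gave 5 and 7, a mean of at least 5 TPM gave 7 and 4, and leaving out 1 library gave 0 to 10 and 0 to 7.

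SPL6, SPL9, SPL10, SPL11 and SPL13B kept their direction in all alternatives. The unadjusted 95% intervals of SPL9, SPL10 and SPL13B left out 0 as reported. Those of SPL9 and SPL13B took in 0 without a filter and with a mean of at least 5 TPM. That of SPL13B did so also under both rescalings, and those of SPL9 and SPL10 also with the replicate block. With 1 library left out, the interval of SPL9 took in 0 in every case. That of SPL10 did so except without jmj28-2 replicate 2, and that of SPL13B except without jmj28-2 replicate 1. Under quantile normalization and median rescaling the log2 change turned negative for SPL4 (-0.0049 and -0.015), SPL13A (-0.016 and -0.022), SPL1 (-0.030 and -0.028) and RGA (-0.024 and -0.020), and under median rescaling for SPL8 (-0.020). With 1 library left out, log2 changes ran from -0.41 to 0.21 for SPL3, -0.15 to 0.18 for SPL4, -0.39 to 0.15 for SPL15, -0.17 to 0.063 for SPL2, -0.092 to 0.12 for SPL13A, -0.075 to 0.055 for SPL7 and -0.063 to 0.072 for SPL8. They ran from -0.047 to 0.52 for MIR156C, -0.57 to 0.025 for MIR157C, -0.37 to 0.016 for SMZ, -0.37 to 0.015 for FD, -0.12 to 0.036 for GAI, -0.10 to 0.27 for RGL1, -0.026 to 0.066 for RGA and -0.11 to 0.023 for RGL2. The cause was not tested. A lone library was assumed to vary like the others.

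Samples share only a replicate number. Over 19764 genes the differences between replicates 1 and 2 of the genotypes had r = 0.016, and with the replicate block 0 SPL members were called, with 12 genes higher and 6 lower over all genes. Depth is unknown, so low levels such as SPL5 have no floor.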
